A study of Mus musculus with 20 samples.

Results

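The enzymes of the methionine cycle and of transsulfuration were followed in mouse liver mRNA, as 9 genes chosen by name and found in the table of counts by their Ensembl identifiers. They are *Cth*, which is *Cse* under its current symbol, and *Cbs*, *Mat1a*, *Mat2a*, *Mat2b*, *Ahcy*, *Gnmt*, *Mtr* and *Mtrr*. The table holds 46078 genes, of which 14759 had enough counts to be tested. All 9 genes were among those tested, in every one of the 20 livers.

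The question was how a liver that lacks cystathionine γ-lyase (CSE) and dietary cysteine differs from livers short of another amino acid or short of glutathione (GSH). All mice were males of at least 9 weeks on a mixed 129/C57BL/6 background, and all were calorie-restricted, first on the control diet and then on the diet of their group. Of the *Cse*+/- mice, 2 received the control diet 5CC7, 4 a diet without cysteine (no-Cys) and 3 a diet without tryptophan (no-Trp). Of the *Cse*-/- mice, 4 received no-Cys, 3 received no-Trp, and 4 received no-Trp together with l-buthionine sulfoximine (BSO). Livers were taken 2 days after the change of diet. BSO blocks the first enzyme of GSH synthesis. The sample labels write WT for the control genotype, whereas the list of mice gives it as heterozygous, and it is called *Cse*+/- here. The deletion is carried in the germline and is not limited to the liver. No *Cse*-/- liver on the control diet was analysed here, so that the genotypes can be compared under the deficient diets alone.

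As background, the methionine cycle turns methionine into S-adenosylmethionine (SAM), the methyl donor of the cell, and then into S-adenosylhomocysteine and homocysteine. Homocysteine is either remethylated to methionine or passed through transsulfuration, in which CBS makes cystathionine and CSE splits it to release cysteine. The liver is the main site of both routes and carries its own SAM synthetase, MAT1A, whereas most other tissues use MAT2A.

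The depth was 11785740 to 57986121 counts on genes per library, with a median of 15252745. Levels are given as CPM, in which each count is divided by the library total after scaling with TMM factors. Of the 6 hepatocyte markers checked, none was at 0 in any library, and albumin stood at 25507 to 87978 CPM. Of the markers of other tissues, the 4 pancreas genes reached at most 1.13 CPM. Of 4 adipose genes *Lep* was at 0 in all 20 libraries, but the sum of the 4 reached 30.0 CPM in a *Cse*+/- no-Trp liver and 13.1 CPM in a *Cse*-/- no-Trp liver, and was at most 0.92 CPM in every library of the other 4 groups. Replicates are separate mice. The mean of a group is given with the SD over its mice, and a fold change with its standard error.

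The 9 genes spanned most of the range of liver mRNA levels. Per kilobase of exon, *Gnmt* ranked 33 and *Mat1a* ranked 35 among 14700 genes, at a mean over all libraries of 1578 and 1556 CPM per kilobase. *Ahcy* ranked 113, at 457 CPM per kilobase. *Cbs* (42.9 CPM per kilobase), *Cth* (28.9) and *Mat2a* (22.8) stood between ranks 1127 and 1832, and *Mat2b* ranked 3790, at 8.82 CPM per kilobase. The remethylation enzymes were the scarcest, with *Mtrr* at 1.86 and *Mtr* at 0.474 CPM per kilobase, the latter higher than 17.7% of genes. The lowest single count in any library was 27 for *Mtr* and 91 for *Mtrr*, and at least 96 for each of the others.

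**Figure D1:**
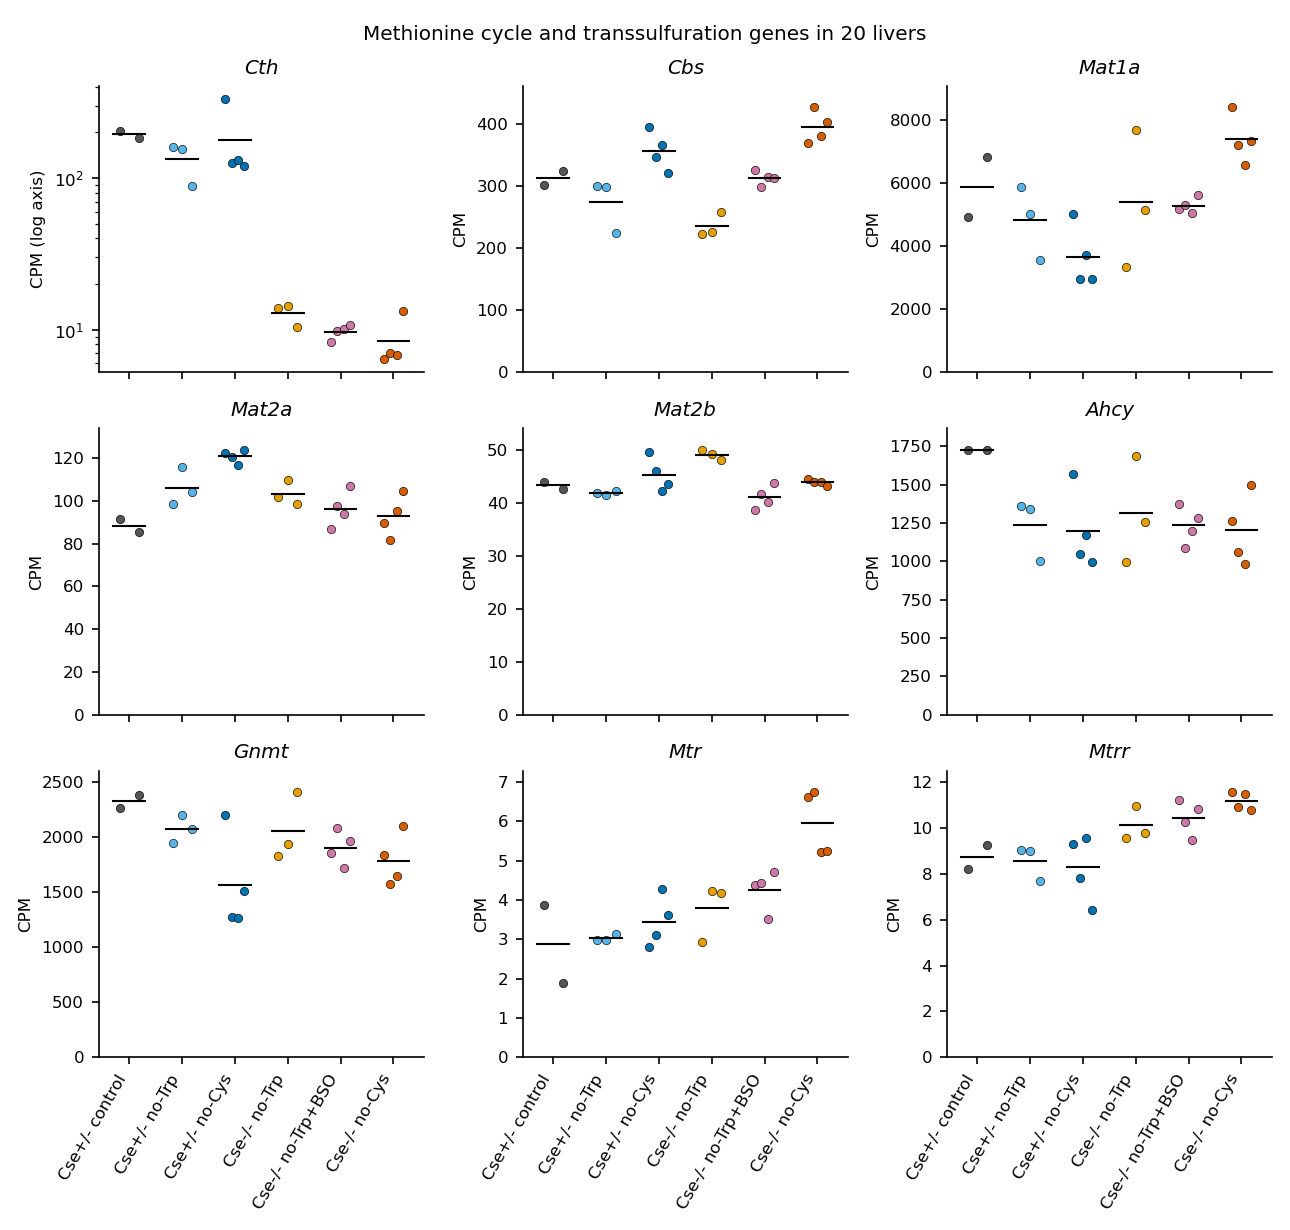
Level of each of the 9 genes in CPM (y axis; logarithmic for Cth, linear from 0 for the others) in the 6 groups (x axis), with a point for each liver and a line at the group mean. The Cse-/- no-Cys livers are the highest group for Cbs, Mat1a, Mtr and Mtrr, and the Cse+/- no-Cys livers are the highest for Mat2a, at 117 to 124 CPM.

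The comparison of genotypes on the no-Cys diet gave the most calls. There, 5 of the 9 genes were called at an adjusted p under 0.05: *Mat1a*, *Mtr* and *Mtrr* were higher in *Cse*-/- livers, and *Cth* and *Mat2a* were lower. Across all genes tested, 23.8% were called in that comparison. Without the deleted gene *Cth*, 4 of 8 were called, and the median log2 fold change of these 8 was 0.17, against -0.01 over all genes.

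On the no-Trp diet the genotypes differed in 1 gene of 9, the deleted *Cth*. Of the other 8 genes, 0 were called with edgeR or DESeq2, with 1 at an unadjusted p under 0.05, against a background of 2.64%. Among *Cse*-/- livers, *Cbs* and *Mtr* were higher on the no-Cys than on the no-Trp diet, which is 2 of 9 against 10.4% of all genes. Addition of BSO to the no-Trp diet gave 0 calls among the 9 genes with edgeR, with 2 at an unadjusted p under 0.05 and 2 calls with DESeq2, and 0.793% of all genes were called. Between *Cse*-/- livers on no-Trp with BSO and on no-Cys, edgeR gave 0 calls, with 3 genes at an unadjusted p under 0.05 and 1 call with DESeq2, against a background of 2.75%.

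Among *Cse*+/- livers, *Mat2a* was higher on the no-Cys than on the control diet, as 1 of 9 genes against 2.18% of all genes. For no-Trp against control, edgeR gave 0 calls and DESeq2 also 0, with 2 genes at an unadjusted p under 0.05, and 0.0474% of all genes were called. *Cbs* was higher on no-Cys than on no-Trp, as 1 of 9 against 8.04%. The interaction, which asks whether the difference between genotypes depended on the diet (no-Cys or no-Trp), gave 0 calls with edgeR and 0 with DESeq2, although 5 genes had an unadjusted p under 0.05, and 4.36% of all genes were called. With all libraries and the filter, the effects of genotype on the 2 diets are therefore not shown to differ for the 9 genes, but *Mat1a* was called without a filter on low counts (0.86, edgeR adjusted p = 0.048) and without mouse av15 (1.20, 0.0289). Comparisons that use the same group of mice share its libraries and are not independent of each other.

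**Figure D2:**
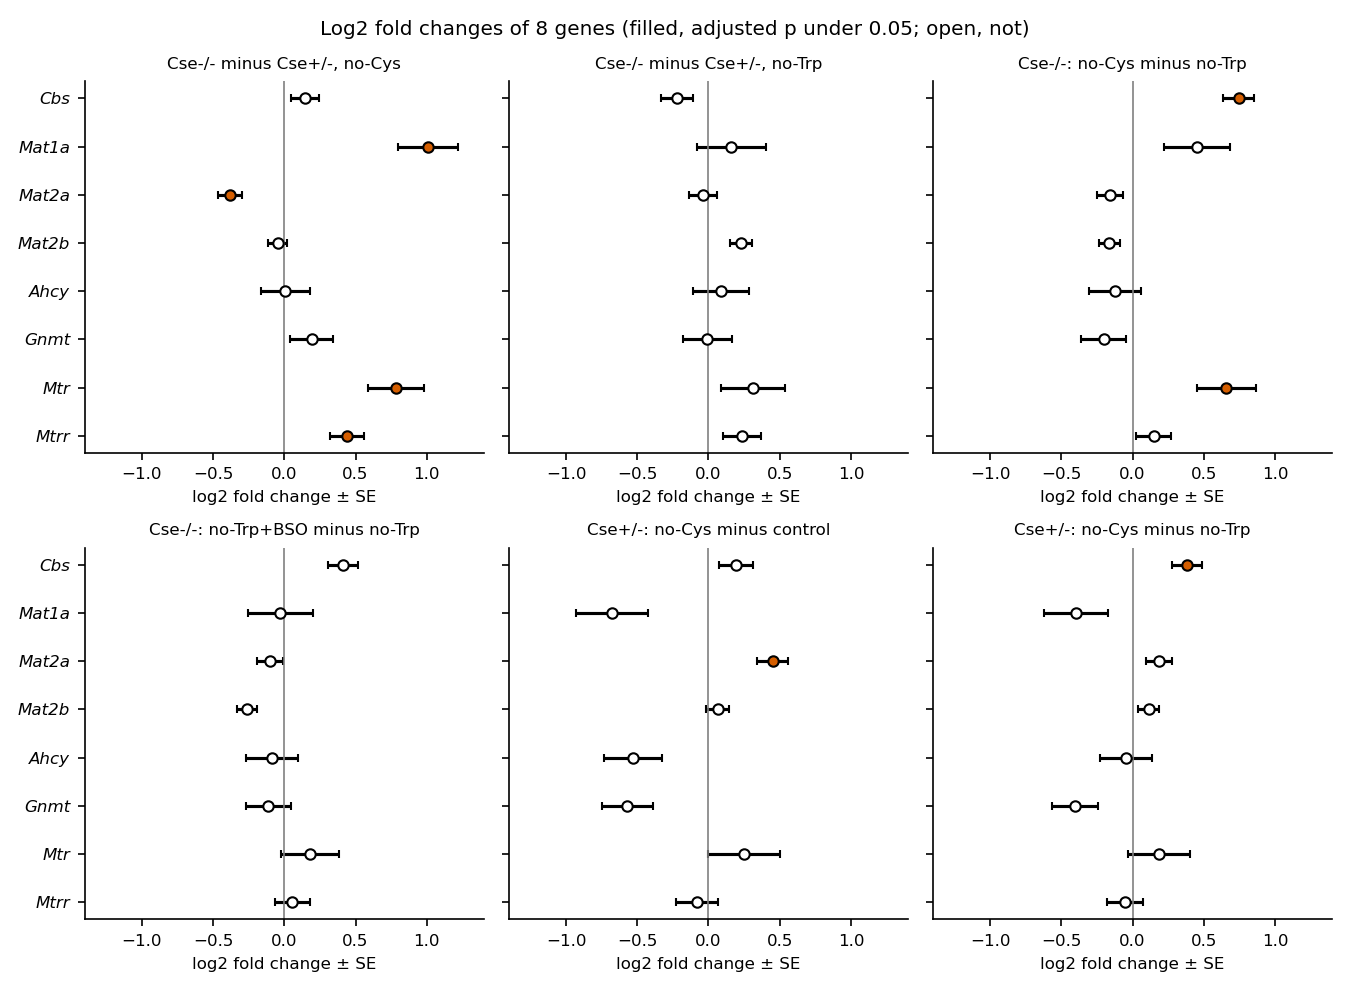
Log2 fold change with its standard error (x axis) of the 8 genes other than Cth (y axis) in 6 comparisons, filled where the edgeR adjusted p was under 0.05. Mat1a at 1.01 and Mat2a at -0.38 lie on opposite sides of 0 in the comparison of genotypes on the no-Cys diet, and Cbs is filled in both comparisons of no-Cys with no-Trp.

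Transsulfuration comprises *Cbs*, which joins homocysteine to serine, and *Cth*, which releases cysteine. *Cth* lies on the minus strand of chromosome 3 from 157894248 to 157925077 (GRCm38). It is the deleted gene and checks the labels. *Cse*+/- livers had 121, 125, 132 and 332 CPM on the no-Cys diet, 88.4, 155 and 159.6 CPM on the no-Trp diet, and 184 and 205 CPM on the control diet. *Cse*-/- livers had 6.37, 6.83, 7.04 and 13.3 CPM on the no-Cys diet, 10.4, 13.9 and 14.4 CPM on the no-Trp diet, and 8.36 to 10.7 CPM on no-Trp with BSO. All *Cse*-/- livers lay below all *Cse*+/- livers, so that each library went with its labelled genotype. *Cth* does not check the labels of diet or BSO.

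The loss was -4.41 ± 0.33 in log2 on the no-Cys diet (edgeR adjusted p = 7.43e-08) and -3.38 ± 0.36 on the no-Trp diet (edgeR adjusted p = 4.75e-05). Counts are kept per gene, so that they do not show which exons the remaining reads come from. No comparison of diets within a genotype was called for *Cth*. Its log2 fold change between no-Cys and no-Trp was -0.63 ± 0.33 in *Cse*-/- livers (edgeR adjusted p = 0.237) and 0.40 ± 0.30 in *Cse*+/- livers (edgeR adjusted p = 0.435), and the latter turned to -0.09 without mouse av01, the library with 332 CPM.

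*Cbs* lies on the minus strand of chromosome 17 from 31608894 to 31637238. It was highest in *Cse*-/- livers on the no-Cys diet, at 369.8, 381, 403 and 427 CPM, and lowest in *Cse*-/- livers on the no-Trp diet, at 224, 226 and 258 CPM. These groups did not overlap, and the means of 395 ± 25.4 and 236 ± 19.3 CPM differed by 0.74 ± 0.11 in log2 (edgeR adjusted p = 0.000351). This call held with every library left out in turn, at 0.70 to 0.81, and under all 5 other settings.

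In *Cse*+/- livers *Cbs* was also higher on no-Cys, at 321, 347, 367 and 395 CPM, than on no-Trp, at 225, 299 and 300.3 CPM. The difference was 0.38 ± 0.11 in log2 (edgeR adjusted p = 0.0323). The groups did not overlap, but the call rests on single mice: it was lost without av01 (0.33, adjusted p = 0.0684), av02 (0.39, 0.0596), av03 (0.37, 0.0712) or av20 (0.26, 0.164), with edgeR in each case. It was also lost without a filter on low counts (0.36, 0.0852) and in a fit of the compared groups alone (0.37, 0.138). *Cse*+/- control livers, at 302 and 324 CPM, lay above the no-Trp livers and overlapped the no-Cys livers.

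Livers of *Cse*-/- mice on no-Trp with BSO had 299 to 327 CPM of *Cbs*, above all 3 no-Trp livers and below all 4 no-Cys livers of that genotype. Neither difference passed the test with edgeR, at 0.41 ± 0.11 against no-Trp (adjusted p = 0.0736) and -0.33 ± 0.10 against no-Cys (adjusted p = 0.0649), although the latter was called in a fit of those groups alone (-0.34, adjusted p = 0.0418). Both passed with DESeq2, at 0.40 (adjusted p = 0.0112) and -0.34 (adjusted p = 0.0145). Genotype made no called difference to *Cbs* on either diet, at 0.14 ± 0.10 on no-Cys (edgeR adjusted p = 0.297) and -0.22 ± 0.11 on no-Trp (edgeR adjusted p = 0.304).

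Per kilobase of exon, the level of *Cbs* was 0.877 ± 0.289 times that of *Cth* in *Cse*+/- no-Cys livers and 0.603 ± 0.0764 times in *Cse*+/- control livers. In *Cse*-/- livers the ratio was 19.1 ± 5.25 on no-Cys, 12.2 ± 1.64 on no-Trp with BSO and 7.03 ± 1.93 on no-Trp. In these 3 groups the means of *Cth* were 8.38, 9.71 and 12.9 CPM.

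The synthesis of SAM is carried out by MAT1A, the form of differentiated liver, and by MAT2A, the form of most other tissues, whose regulatory subunit is MAT2B. *Mat1a* lies on the plus strand of chromosome 14 from 41105035 to 41124412. It was highest in *Cse*-/- livers on the no-Cys diet, at 6576, 7230.3, 7349 and 8415 CPM, and lowest in *Cse*+/- livers on the same diet, at 2969, 2975, 3730.5 and 5018 CPM. The groups did not overlap. Their means of 7393 ± 762 and 3673 ± 965 CPM differed by 1.01 ± 0.21 in log2 (edgeR adjusted p = 0.00198), and the difference was 0.92 to 1.20 with each library left out.

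No other comparison of *Mat1a* was called in the fit of all libraries after filtering, and mice within some groups differed widely. *Cse*-/- livers on no-Trp had 3347, 5168 and 7681 CPM, and *Cse*+/- livers on no-Trp had 3565, 5041 and 5889 CPM, a difference of 0.16 ± 0.24 (edgeR adjusted p = 0.774) that turned to -0.19 without av15. *Cse*+/- control livers had 4939 and 6827 CPM, against which the no-Cys livers of that genotype were at -0.68 ± 0.25 in log2 (edgeR adjusted p = 0.168). Within *Cse*-/- livers, no-Cys exceeded no-Trp by 0.45 ± 0.23 (edgeR adjusted p = 0.214), and this became a call without mouse av15 (0.79, edgeR adjusted p = 0.0319), whose 7681 CPM was the highest of the no-Trp livers. The interaction of 0.85 ± 0.32 (edgeR adjusted p = 0.145) was likewise called without av15 (1.20, adjusted p = 0.0289). *Cse*-/- livers on no-Trp with BSO were close together, at 5062 to 5637 CPM, below all no-Cys livers of that genotype. Their difference of -0.48 ± 0.21 from these was not called (edgeR adjusted p = 0.210), except in a fit of those groups alone (-0.48, adjusted p = 0.0286).

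*Mat2a*, on the minus strand of chromosome 6 from 72432799 to 72439558, ran the other way. *Cse*+/- livers on the no-Cys diet had 117, 121, 122 and 124 CPM. *Cse*-/- livers on the same diet had 81.7, 89.6, 95.3 and 104 CPM. The groups did not overlap, and *Mat2a* was lower in *Cse*-/- livers by -0.38 ± 0.09 in log2 (edgeR adjusted p = 0.00312), with -0.44 to -0.33 when each library was left out.

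*Cse*+/- control livers had 85.5 and 91.4 CPM of *Mat2a*, and all 4 no-Cys livers of that genotype lay above them, by 0.45 ± 0.11 in log2 (edgeR adjusted p = 0.0287). The control group held only 2 livers, and this call is fragile. It was lost without av21 (0.50, edgeR adjusted p = 0.103), av22 (0.40, 0.403) or av02 (0.45, 0.0611), and also without a filter on low counts (0.44, 0.0659), after thinning (0.45, 0.0511) and in a fit of the compared groups alone (0.45, 0.0704). The no-Trp livers of the same genotype had 98.3, 104 and 116 CPM, and their difference from control, 0.26 ± 0.11, did not pass (edgeR adjusted p = 0.472). On the no-Trp diet the genotypes were at 103 ± 5.82 and 106 ± 8.83 CPM, a log2 difference of -0.04 ± 0.10 (edgeR adjusted p = 0.878). The interaction for *Mat2a* was -0.34 ± 0.13 (edgeR adjusted p = 0.143). The *Cse*+/- no-Cys libraries enter both of the called comparisons of *Mat2a*.

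The amount of *Mat2a* mRNA is known to be set by SAM through METTL16, an RNA methyltransferase that binds hairpins in the 3′ untranslated region of *Mat2a*, each around the nonamer TACAGAGAA (written as DNA). That nonamer was searched on the transcript strand of the 3′ untranslated regions of 21020 genes, of which 504 (2.4%) held it at least once. *Mat2a* held it 5 times, and no other gene had as many. The 5 places are shown because *Mat2a* was the SAM synthetase that was lower in *Cse*-/- than in *Cse*+/- livers on the no-Cys diet. *Cse*-/- no-Cys livers, at a mean of 92.7 CPM, overlapped *Cse*+/- control livers, at 88.4 CPM, and these groups were not tested against each other. The places are given with 10 bases on either side, 5′ to 3′ as the transcript reads (chromosome 6, GRCm38, minus strand), with the nonamer in capitals. The letters alone do not show that a site is used.
Site 1, chr6:72434235-72434263: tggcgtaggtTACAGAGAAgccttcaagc
Site 2, chr6:72433451-72433479: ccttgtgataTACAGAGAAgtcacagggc
Site 3, chr6:72433272-72433300: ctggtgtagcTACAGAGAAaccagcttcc
Site 4, chr6:72433157-72433185: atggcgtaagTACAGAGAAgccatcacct
Site 5, chr6:72432938-72432966: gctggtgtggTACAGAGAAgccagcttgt

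*Mettl16* itself had 13.9 to 17.8 CPM in *Cse*-/- no-Cys livers and 9.91 to 12.9 CPM in *Cse*+/- no-Cys livers. The groups did not overlap, but the difference of 0.33 ± 0.14 in log2 did not pass the test (edgeR adjusted p = 0.0908). An antisense transcript, *Particl*, covers 508 exonic bases of *Mat2a* (11.3%). The kit does not mark strand, so that reads of both cannot be told apart in those bases, and how such reads were counted is not known here. Of the 61-base words of *Mat2a* transcripts, 12.2% occur in other genes. Among those genes *Gm9523* reached 0.901 CPM at most.

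The levels of the 2 synthetases can also be set against each other as a ratio. Per kilobase of exon, the level of *Mat2a* was 0.0266 ± 0.00633 of that of *Mat1a* in *Cse*+/- no-Cys livers, with single livers at 0.0188 to 0.0322. In *Cse*-/- no-Cys livers it was 0.00979 ± 0.00152, with single livers at 0.00823 to 0.0112. The other groups stood between these means, at 0.0177 ± 0.00484 (*Cse*+/- no-Trp), 0.0164 ± 0.00642 (*Cse*-/- no-Trp), 0.0140 ± 0.000716 (*Cse*-/- no-Trp with BSO) and 0.0120 ± 0.00327 (*Cse*+/- control). Single livers of these groups reached into the ranges of both, av22 (0.00968) and av15 (0.0110) into that of *Cse*-/- no-Cys livers and av14 (0.0235) and av20 (0.0226) into that of *Cse*+/- no-Cys livers. The ratio is a description of levels that were tested above and was not tested again.

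**Figure D3:**
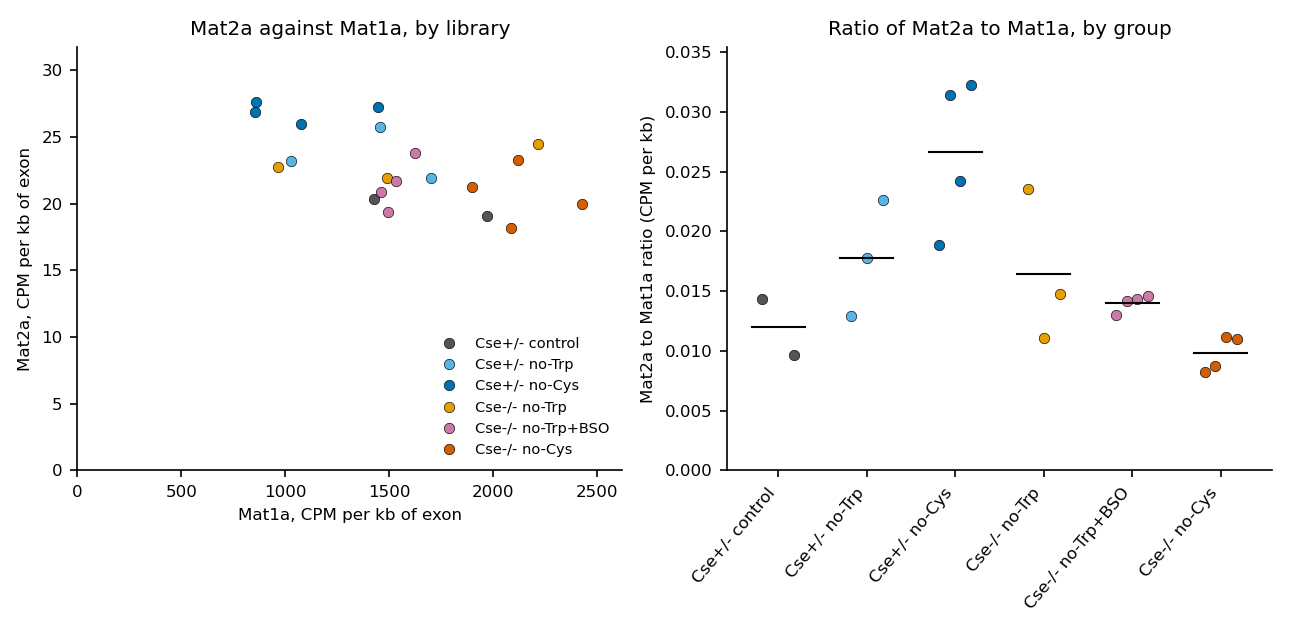
Left, Mat2a (y axis) against Mat1a (x axis), both in CPM per kilobase of exon, with a point for each liver; right, the ratio of the 2 levels (y axis) in the 6 groups (x axis), with a line at each group mean. The Cse+/- no-Cys livers lie at 0.0188 to 0.0322 and the Cse-/- no-Cys livers at 0.00823 to 0.0112.

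*Mat2b*, on the minus strand of chromosome 11 from 40679314 to 40695203, encodes the subunit that modulates MAT2A. It varied least of the 9 genes, with a 1.30-fold range from the lowest to the highest library. *Cse*-/- no-Trp livers had 48.2, 49.2 and 50.1 CPM, above all 4 livers on no-Trp with BSO (38.6 to 43.7 CPM), all 4 *Cse*-/- no-Cys livers (43.2 to 44.6 CPM) and all 3 *Cse*+/- no-Trp livers (41.6 to 42.4 CPM). None of these differences was called with edgeR. That against *Cse*+/- no-Trp was 0.23 ± 0.08 (adjusted p = 0.111), and that of BSO against no-Trp was -0.26 ± 0.07 (adjusted p = 0.0898 with edgeR and 0.0254 with DESeq2). On the no-Cys diet the genotypes were at 43.9 ± 0.576 and 45.4 ± 3.19 CPM.

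The use of SAM and the removal of its product fall to GNMT, which methylates glycine and disposes of surplus SAM, and to AHCY, which hydrolyses S-adenosylhomocysteine. *Gnmt* lies on the minus strand of chromosome 17 from 46725664 to 46729168. Its group mean was highest in *Cse*+/- control livers, at 2267 and 2382 CPM, and its 3 lowest values were in *Cse*+/- no-Cys livers, which had 1267, 1277, 1511 and 2203 CPM. The last, mouse av01, stood within the range of the other groups. No comparison of *Gnmt* was called in the fit of all libraries after filtering: *Cse*+/- no-Cys was at -0.57 ± 0.18 against control (edgeR adjusted p = 0.0988, and -0.58 with 0.0449, a call, without a filter on low counts) and at -0.40 ± 0.16 against no-Trp (edgeR adjusted p = 0.123).

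Without av01, 3 comparisons of *Gnmt* became calls with edgeR. *Cse*+/- no-Cys was then lower than control by -0.77 in log2 (adjusted p = 0.00543) and lower than no-Trp by -0.61 (adjusted p = 0.0077). *Cse*-/- no-Cys livers, which had 1569, 1642, 1833 and 2100.4 CPM, were then higher than *Cse*+/- no-Cys livers by 0.40 (adjusted p = 0.0221), against 0.19 ± 0.15 with av01 (adjusted p = 0.375). Mouse av01 was also the highest of its group for *Cth*, *Cbs*, *Mat1a*, *Mat2b* and *Ahcy*.

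The ratio of *Gnmt* to *Mat1a*, per kilobase of exon, was 0.698 ± 0.0938 in *Cse*-/- no-Cys livers and 1.03 to 1.29 as the mean of each of the other 5 groups. All 4 *Cse*-/- no-Cys livers, at 0.624 to 0.822, lay below all *Cse*+/- no-Cys livers, at 0.976 to 1.46. Liver av15 of the *Cse*-/- no-Trp group, at 0.723, lay within the range of the *Cse*-/- no-Cys livers.

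*Ahcy*, on the minus strand of chromosome 2 from 155059310 to 155074497, showed no called change. *Cse*+/- livers had 1728 and 1729 CPM on the control diet, 996, 1049, 1175 and 1567 CPM on no-Cys and 1002, 1342 and 1363 CPM on no-Trp. Both control livers lay above all livers of the other diets, in both genotypes (984 to 1688 CPM). Against control, no-Cys was at -0.53 ± 0.20 (edgeR adjusted p = 0.185) and no-Trp at -0.48 ± 0.22 (edgeR adjusted p = 0.509). The genotypes on no-Cys differed by 0.01 ± 0.17 (edgeR adjusted p = 0.981), and the sign of that difference turned with the library left out.

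Values of *Ahcy* are uncertain in level, because 67.2% of its 61-base words also occur in *Gm4737*, *Gm9826* or *Gm5638*. *Gm4737* was counted at 145 to 301 CPM and *Gm9826* at 10.5 to 31.3 CPM, and counts of these genes may include reads of *Ahcy*. With the counts of the 4 genes summed, an alternative chosen after seeing the data, no comparison of *Ahcy* was called.

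Remethylation of homocysteine with folate is the work of MTR, the cobalamin-dependent methionine synthase, and MTRR, which restores its cobalamin cofactor. Both genes lie on the minus strand of chromosome 13, *Mtr* from 12182712 to 12258113 and *Mtrr* from 68560780 to 68582149. *Mtr* was highest in *Cse*-/- no-Cys livers, at 5.21, 5.24, 6.61 and 6.75 CPM. *Cse*+/- no-Cys livers had 2.79, 3.10, 3.61 and 4.28 CPM, below all of these. The difference was 0.78 ± 0.20 in log2 (edgeR adjusted p = 0.00715), and 0.70 to 0.90 with each library left out.

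*Cse*-/- livers on no-Trp had 2.93, 4.19 and 4.24 CPM of *Mtr*, also below all no-Cys livers of that genotype, by 0.66 ± 0.21 in log2. This call was at the threshold (edgeR adjusted p = 0.0477). It was lost without any one of av05, av06, av07, av14, av15 and av16, with edgeR adjusted p of up to 0.216, and under 3 of 5 other settings. Livers on no-Trp with BSO had 3.51 to 4.71 CPM, below no-Cys by -0.47 ± 0.19 (edgeR adjusted p = 0.168). *Cse*+/- livers had 2.98, 2.99 and 3.13 CPM on no-Trp and 1.88 and 3.87 CPM on the control diet.

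*Mtrr* had 10.8, 10.9, 11.5 and 11.6 CPM in *Cse*-/- no-Cys livers and 6.44, 7.83, 9.28 and 9.57 CPM in *Cse*+/- no-Cys livers, without overlap. The difference was 0.44 ± 0.12 in log2 (edgeR adjusted p = 0.0113) and 0.33 to 0.52 with each library left out. With all libraries thinned to the depth of the shallowest it was 0.40 and no longer called (edgeR adjusted p = 0.0806). All 3 *Cse*-/- no-Trp livers (9.58, 9.78 and 11.0 CPM) lay above the *Cse*+/- no-Trp livers (7.71, 9.00 and 9.03 CPM), at 0.23 ± 0.13 (edgeR adjusted p = 0.356). The 3 group means of *Cse*-/- livers, 10.1 to 11.2 CPM, were above the 3 of *Cse*+/- livers, 8.28 to 8.73 CPM.

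Of the 5 genes called between genotypes on the no-Cys diet, *Mtr*, *Mtrr* and *Mat2a* had a promoter window, and these 3 are shown. *Mtr* and *Mtrr* were called upward and *Mat2a* downward. Each window runs from 250 bases before to 50 bases after the start of the gene, 5′ to 3′ on the minus strand (RefSeq, GRCm38.p6), and capitals mark the letters CCAAT (or ATTGG, the same on the other strand) and TATAAA. RefSeq gives *Mtrr* 2 overlapping windows, and that of the start farther upstream is printed.
Mtr promoter, chr13:12258064-12258363: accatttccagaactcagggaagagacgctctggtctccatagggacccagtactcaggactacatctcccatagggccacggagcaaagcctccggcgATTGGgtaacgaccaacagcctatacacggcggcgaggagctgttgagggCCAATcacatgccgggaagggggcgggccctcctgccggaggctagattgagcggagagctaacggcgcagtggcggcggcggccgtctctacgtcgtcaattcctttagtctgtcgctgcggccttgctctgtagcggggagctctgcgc
Mtrr promoter, chr13:68582120-68582419: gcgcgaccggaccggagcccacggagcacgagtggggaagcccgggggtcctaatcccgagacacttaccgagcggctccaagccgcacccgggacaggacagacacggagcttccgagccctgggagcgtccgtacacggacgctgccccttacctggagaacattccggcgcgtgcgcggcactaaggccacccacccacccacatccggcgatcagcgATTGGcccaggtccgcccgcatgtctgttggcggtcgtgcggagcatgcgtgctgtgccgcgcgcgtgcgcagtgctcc
Mat2a promoter, chr6:72439507-72439806: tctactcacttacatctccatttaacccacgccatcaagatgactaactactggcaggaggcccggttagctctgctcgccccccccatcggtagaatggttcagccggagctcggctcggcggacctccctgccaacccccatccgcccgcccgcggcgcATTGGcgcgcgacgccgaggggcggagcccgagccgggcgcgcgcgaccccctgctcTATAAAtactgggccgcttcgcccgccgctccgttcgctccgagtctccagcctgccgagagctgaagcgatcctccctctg

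Windows were found for 7 of the 9 genes, and none was found for *Cth* or *Mat1a*. CCAAT was present on either strand in all 7, as in 37.4% of 32851 promoters of this length, and lay at positions -151 and -101 from the start of *Mtr*, at -29 from that of *Mtrr* and at -89 from that of *Mat2a*. TATAAA, searched on both strands, was present in *Mat2a* alone of the 7, at -32 from its start, and in 13.6% of all promoters. The letters TGATGNAA of the C/EBP–ATF composite element, which ATF4 binds in the integrated stress response, are held by 3.97% of promoters and were not found in any of these windows. The letters TGACNNNGC of the antioxidant response element, which NRF2 binds, are held by 12.4% and were not found either. No match says only that these letters are not in these windows.

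Markers of cell types moved with the comparison of genotypes on the no-Cys diet, in which the 5 genes and 23.8% of all genes were called. Of the 6 hepatocyte markers, *Alb*, *Apoa1* and *Ttr* were lower and *Cps1* was higher in *Cse*-/- livers, and *Tat* and *Hnf4a* were not called with edgeR. The summed level of the 6 was 40200 to 66841 CPM in *Cse*-/- and 84146 to 108433 CPM in *Cse*+/- livers, and 62986 to 69751 CPM in *Cse*-/- no-Trp livers. Albumin dominates this sum, with a median of 52777 CPM over all libraries against 9049 CPM for *Apoa1*, the next highest, so that the sum mainly follows albumin. All 5 red blood cell genes were lower, with a summed level of 69.1 to 114 CPM against 201 to 406 CPM. Of 6 Kupffer and immune, 4 endothelial, 4 stellate and 4 cholangiocyte genes, 1 each was called, lower except for the endothelial *Lyve1*, a share near the 23.8% of all genes. Of the zonal markers, 2 of 4 pericentral genes (*Oat* and *Cyp1a2*) were higher and 0 of 4 periportal genes were called by edgeR or DESeq2, with 0 at an unadjusted p under 0.05. Markers also moved in the other comparisons with calls. In *Cse*-/- livers on no-Cys against no-Trp, 10.4% of all genes were called. There, *Apoa1* and *Ttr* were lower among 6 hepatocyte genes, and *Cyp2e1* was lower and *Cyp1a2* higher among 4 pericentral genes. Of 5 red blood cell genes, 3 were lower. In *Cse*+/- livers, *Sds* (periportal) and *Krt7* (cholangiocyte), each 1 of 4, were lower on no-Cys than on control, where 2.18% of all genes were called. In the same genotype the endothelial *Pecam1* and *Lyve1*, 2 of 4, were lower on no-Cys than on no-Trp, where 8.04% were called. In *Cse*-/- livers on no-Trp with BSO against no-Cys, *Apoa1*, *Ttr*, *Glul* (pericentral) and *Krt7* were higher, where 2.75% of all genes were called. For the interaction, *Alb*, *Ttr* and the red blood cell gene *Alas2* were called below 0, and *Oat* and *Lyve1* above 0, where 4.36% of all genes were called. The part of these shifts in the results for the 9 genes and their neighbours was not tested. In bulk liver a change in the number of cells of a type and a change in the mRNA of a gene per cell cannot be told apart.

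Genes next to the 9 in the pathway were taken from 6 lists, 27 genes in all, every one of them tested. On the no-Cys diet 6 were called between genotypes, a share near the 23.8% of all genes. Of 6 genes of cobalamin handling, 2 were higher in *Cse*-/- livers and 0 were lower, against the same 23.8%. *Mmachc*, which processes cobalamin on its entry into the cytosol, had 20.4 to 21.8 CPM against 11.9 to 15.6 CPM, at 0.54 ± 0.14 in log2 (edgeR adjusted p = 0.00935), called with each library left out. *Abcd4*, which takes part in the release of cobalamin from lysosomes, was at 0.48 ± 0.15 (edgeR adjusted p = 0.0264) and was lost without av02, av03, av07 or av08. Between genotypes on the no-Trp diet edgeR called 0 of these 6 genes. DESeq2 called *Tcn2* there (0.45, adjusted p = 0.0231), which edgeR did not (0.0629).

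Of 4 genes of the other remethylation route and of methyl supply, 1 was called between genotypes on the no-Cys diet, again near the 23.8% of all genes. *Bhmt2*, a betaine-homocysteine methyltransferase relative, was at 0.38 ± 0.13 (edgeR adjusted p = 0.0447) and was lost without any one of av02, av03, av04, av06, av07 and av08, and in a fit of the compared groups alone (adjusted p = 0.0634). Its groups overlapped. *Bhmt*, which remethylates homocysteine with betaine, was at 0.01 ± 0.41 and was not called. Between genotypes on the no-Trp diet edgeR called 0 of these 4 genes, although 3 had an unadjusted p under 0.05. DESeq2 gave 1 call, *Bhmt2* (0.52, adjusted p = 0.0306). There *Bhmt* had 1387 to 3704 CPM in *Cse*-/- and 418 to 1259.5 CPM in *Cse*+/- livers, without overlap, at 1.34 ± 0.48 (edgeR adjusted p = 0.138).

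Of 8 methyltransferases that use SAM on small molecules, 3 were called between genotypes on the no-Cys diet, against 23.8% of all genes. All 3 were lower in *Cse*-/- livers, as were 1798 of the 3515 genes called among all 14759. *Gamt*, which makes creatine, had 76.4 to 162 CPM against 182 to 242 CPM, at -1.05 ± 0.19 (edgeR adjusted p = 0.000521), and this held with each library left out. *Hnmt*, which inactivates histamine, was at -1.03 ± 0.27 (edgeR adjusted p = 0.0099), with 10.9 to 36.2 CPM against 32.2 to 43.6 CPM. The groups overlapped through mouse av08, without which the difference was -1.63. *Inmt*, an indolethylamine methyltransferase, was at -1.04 ± 0.29 (edgeR adjusted p = 0.0142) and was lost without av04. With edgeR, *Gamt* was the only one of the 27 for which the interaction was called, at -1.03 ± 0.28 (edgeR adjusted p = 0.0442), against 4.36% of all genes. *Hnmt*, at -1.39 ± 0.41, was called by DESeq2 (adjusted p = 0.0146) and not by edgeR (0.0567). The call of *Gamt* held without av01 or av08 but was lost without any other single library, after thinning (adjusted p = 0.0541) and in a fit of the compared groups alone (adjusted p = 0.0912).

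Of 5 genes of methionine salvage and 3 genes of the *Ahcy* family and adenosine removal, 0 were called between genotypes on the no-Cys diet by edgeR or DESeq2, with 0 at an unadjusted p under 0.05. Within *Cse*-/- livers, *Gamt* (-0.68 ± 0.20), *Hnmt* (-1.09 ± 0.29) and *Inmt* (-1.41 ± 0.31) were lower on no-Cys than on no-Trp, with edgeR adjusted p of 0.0343, 0.0209 and 0.0083, and *Hnmt* was at -1.69 without av08. *Mri1*, an isomerase of methionine salvage, was higher there, at 0.42 ± 0.12 (edgeR adjusted p = 0.0253). These are 4 of the 27, where 10.4% of all genes were called. DESeq2 also called *Abcd4* there (0.47, adjusted p = 0.0459), which edgeR did not (0.0687). In a fit of those groups alone *Gamt*, *Hnmt* and *Mri1* were not called. With libraries left out, *Gamt* was lost without av05, av06, av07, av14 or av16, *Hnmt* without av05, av06, av07 or av14, *Inmt* without av14, and *Mri1* without av15 or av16. *Inmt* was also higher on no-Trp with BSO than on no-Cys, at 1.13 ± 0.29 (edgeR adjusted p = 0.0425), where 2.75% of all genes were called, a call lost without av05, av06, av07, av09, av11 or av12. DESeq2 also called *Gamt* (0.64, adjusted p = 0.0197) and *Cd320* (0.53, adjusted p = 0.0239) there, which edgeR did not (0.0625 and 0.0544).

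**Figure D4:**
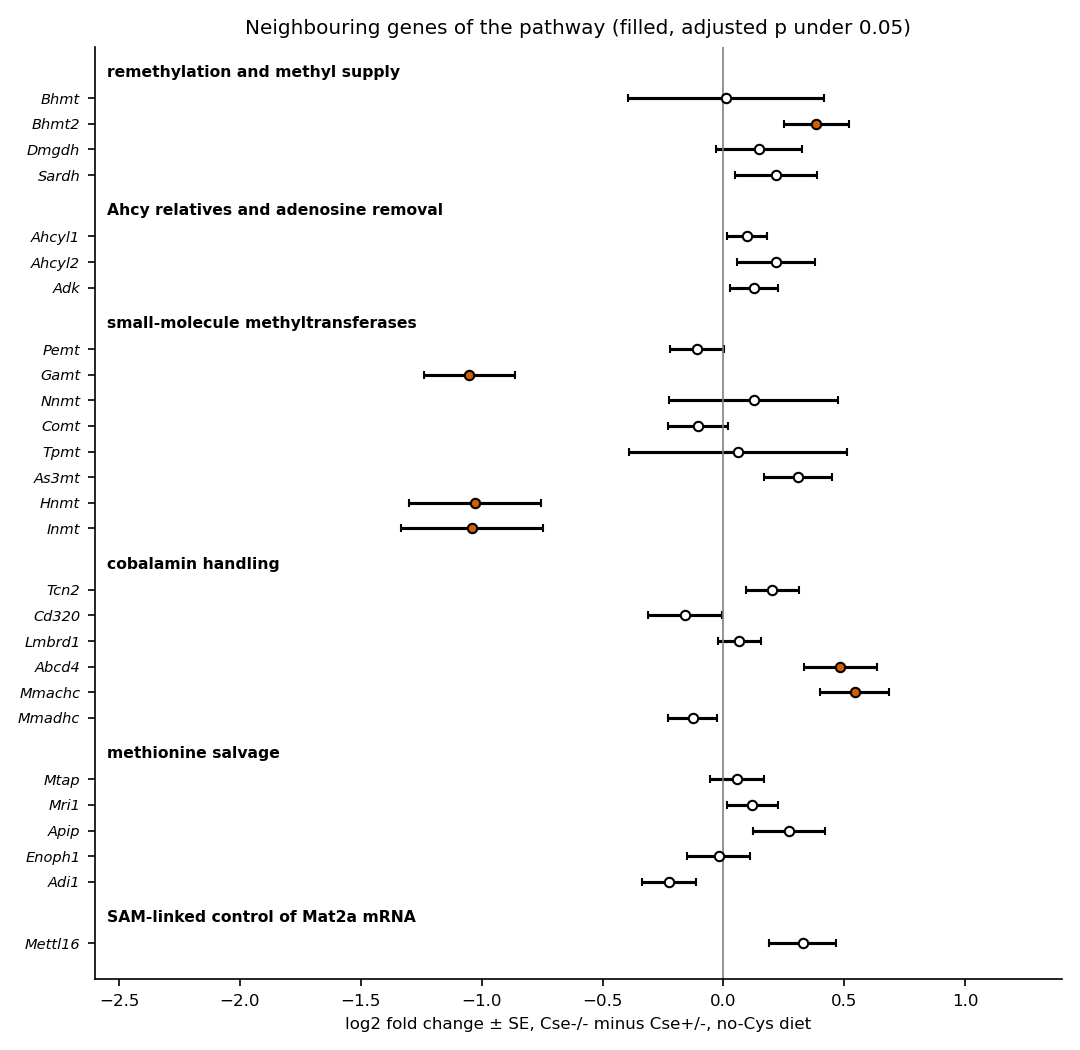
Log2 fold change with its standard error (x axis) between Cse-/- and Cse+/- livers on the no-Cys diet, for 27 genes next to the methionine cycle (y axis) by role, filled where the edgeR adjusted p was under 0.05. Gamt, Hnmt and Inmt lie near -1.05 to -1.03, and Bhmt2, Abcd4 and Mmachc at 0.38 to 0.54.

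The gene most like each of the 9 over the 20 libraries was found by Pearson's r of log2 CPM, among 7830 genes with a mean of at least 10 CPM. *Cth* was nearest to *Tmem19* (r = 0.96), *Mtrr* to *Htatsf1* (0.92), *Mat1a* to *Mon2* (0.89), *Mtr* to *Eif2b5* (0.87), *Gnmt* to *Sult1d1* (0.86), *Cbs* to *Ddx49* (0.85), *Mat2a* to *Sos2* (0.81) and *Mat2b* to *Hfe2* (0.81). The nearest to *Ahcy* was *Gm4737* (0.97), which shares its sequence. These values describe libraries that fall into groups of genotype and diet, and libraries of a group share both.

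**Figure D5:**
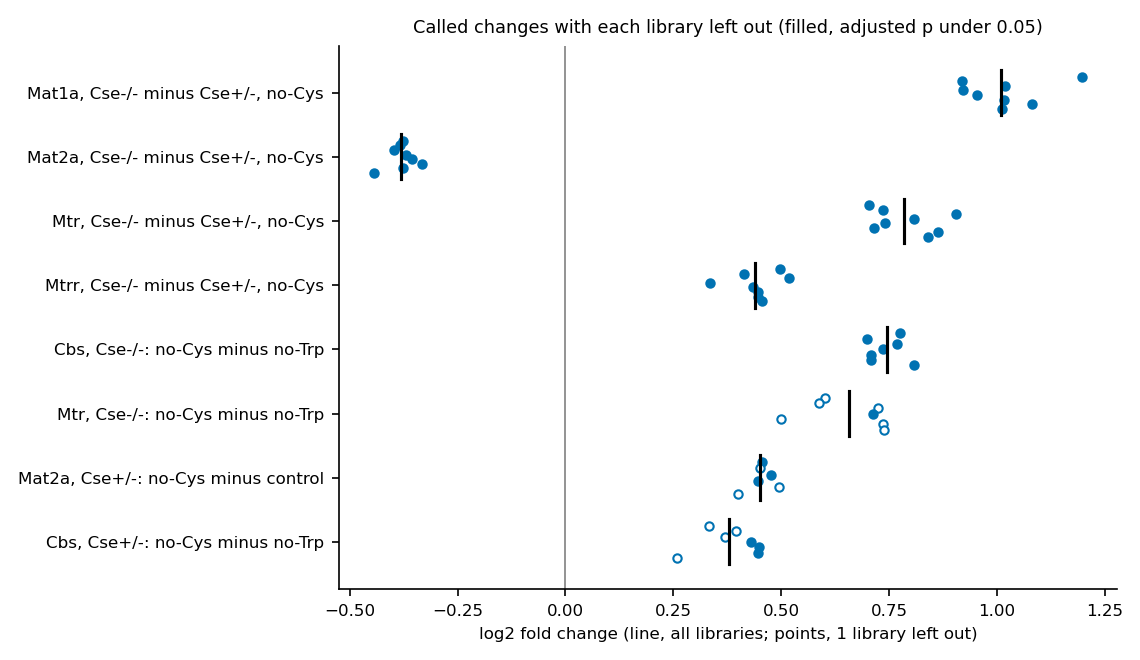
Log2 fold change (x axis) of each called change other than those of Cth (y axis), with all libraries (line) and with each library of the comparison left out (points; filled where the edgeR adjusted p was under 0.05). The 4 changes between genotypes on the no-Cys diet and that of Cbs in Cse-/- livers stay filled throughout, whereas Mtr in Cse-/- livers is filled in 1 of 7.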

How the data were processed

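Poly(A) RNA of 20 livers was sequenced with paired-end reads by the authors, who aligned the reads to GRCm38 with HISAT2 2.1.0 and counted them on genes with HTSeq 0.11.0. Which annotation release they used is not given here in any source. The deposited values are raw counts per gene, and the depth of 11785740 to 57986121 counts leaves few counts on the scarce genes. Columns were matched to groups through the study's list of mice for this experiment, and 1 column outside that list was not used.

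Counts were tested with edgeR 4.0.16 (R 4.3.3): filterByExpr (minimum count 10, minimum total 15), TMM factors, and a quasi-likelihood F test, two-sided, in 1 fit of 20 libraries with 6 group means. Values of p were adjusted over 14759 genes by the Benjamini-Hochberg method, and a call is an adjusted p under 0.05. The standard error is the absolute log2 fold change over the square root of F. The test was checked on simulated data. The alternatives were DESeq2 1.42.0, RLE factors, no filter, thinning to the shallowest library, a fit of the compared groups only and leaving out each library. Pairs of libraries of a group differed by more than counting noise (chi-square per gene 9.6 to 64.2). CPM per kilobase uses the exonic bases of each gene in the GENCODE M21 annotation of GRCm38. The text names all 9 genes, neighbouring genes called in the comparison described, and *Bhmt* and *Mettl16* for their roles. Another gene of these lists is not reported here. The genes and lists were chosen with earlier results of these data known. Figures used Python 3.11.15 and matplotlib 3.10.9.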

Additional observations from a re-analysis of the deposited data

Results flagged for a closer look

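Of 27 sets of 4 livers (a gene in a group), 2 had a single liver far from the other 3, both for *Cth*, where chance gives about 1 in 20. In *Cse*+/- no-Cys livers, mouse av01 had 332 CPM and the nearest liver 132 CPM. In *Cse*-/- no-Cys livers, mouse av08 had 13.3 CPM and the nearest liver 7.04 CPM.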

How the results depend on the processing

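Of the 81 values of the 9 genes under 1026 other settings, 950 kept their direction and their side of the threshold, 22 lost a call, 12 gained one and 42 changed sign, none of these from a called value. Of 158 settings of 12 called values of neighbouring genes, 47 lost the call and 0 changed sign. The number of the 9 genes called changed as follows, and the cause was not tested. Between genotypes on no-Cys it was 4 after thinning, without *Mtrr*, and 6 without av01, with *Gnmt* added. DESeq2 called 2 for BSO against no-Trp and 1 for BSO against no-Cys (*Cse*-/-). Without a filter, 1 was called for no-Cys against no-Trp in *Cse*-/- livers, 0 in *Cse*+/- livers, and 1 (*Mat1a*) for the interaction. After thinning, 1 was called for no-Cys against no-Trp (*Cse*-/-) and 0 for no-Cys against control. In fits of the compared groups alone, 1 was called for no-Cys against no-Trp in *Cse*-/- livers, 0 in *Cse*+/- livers, 2 for BSO against no-Cys and 0 for no-Cys against control. With each library left out, the number called was 1 to 2 for no-Cys against no-Trp in *Cse*-/- livers, 0 to 1 in *Cse*+/- livers, 0 to 2 for no-Cys against control and 0 to 1 for the interaction.

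Values that changed sign were small beside their errors or rested on few mice. After thinning, *Mtr* was at -0.12 for BSO against no-Trp, and *Mtrr* at 0.026 for BSO against no-Cys and 0.025 for no-Cys against no-Trp (*Cse*+/-). With libraries left out, the log2 fold change of *Ahcy* ranged from -0.12 to 0.16 between genotypes on no-Cys, -0.14 to 0.24 on no-Trp, -0.23 to 0.15 for the interaction, -0.29 to 0.091 for no-Cys against no-Trp in *Cse*-/- and -0.20 to 0.035 in *Cse*+/- livers, -0.26 to 0.12 for BSO against no-Trp and -0.054 to 0.16 for BSO against no-Cys. Between genotypes on no-Trp, *Mat1a* ranged from -0.19 to 0.40, *Mat2a* from -0.091 to 0.026 and *Gnmt* from -0.14 to 0.053. For BSO against no-Trp, *Mat1a* ranged from -0.28 to 0.31 and *Gnmt* from -0.19 to 0.0048, and for BSO against no-Cys *Mat2a* ranged from -0.0057 to 0.12. For no-Cys against control, *Cth* ranged from -0.62 to 0.021, *Mtr* from -0.17 to 0.87 and *Mtrr* from -0.17 to 0.035, and for no-Trp against control *Mtr* from -0.34 to 0.69 and *Mtrr* from -0.11 to 0.069. For no-Cys against no-Trp in *Cse*+/- livers, *Cth* ranged from -0.089 to 0.55 and *Mtrr* from -0.13 to 0.052.

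The number of all genes called also rested on single libraries. It fell from 322 to 10 without av22 for no-Cys against control, from 389 to 109 without av15 between genotypes on no-Trp, from 1535 to 683 without av14 for no-Cys against no-Trp (*Cse*-/-), and from 1186 to 597 without av02 in *Cse*+/- livers. For BSO against no-Cys it was 52 without av06 and 1027 without av08, for BSO against no-Trp 36 without av09, for no-Trp against control 2 without av17, and for the interaction 350 without av07 and 1150 without av08. No paired analysis was possible because the columns carry mouse numbers and not the replicate numbers of the labels. Of the methionine cycle and transsulfuration genes, *Mtr* had the lowest single count, at 27. After thinning, *Mtr* kept its call between genotypes on no-Cys and lost that between no-Cys and no-Trp (*Cse*-/-). *Mtrr* lost its call between genotypes on no-Cys. Which gene depth limits most was not tested.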
